A study of Mus musculus with 13 samples.

Results

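Hepatic transcripts of 7 genes of cholesterol synthesis were examined in alcohol-fed mice with and without an inducible transgene for acid ceramidase. The 7 genes were chosen by symbol: Srebf2, which encodes the transcription factor SREBP2, and 6 enzymes of the pathway it drives, Hmgcs1, Mvk, Idi1, Sqle, Lss and Cyp51. They were 7 of 53392 genes in the count table, and all 7 were among the 14317 genes that passed the filter on low counts. SREBP2 targets also include genes of LDL uptake, but none of the 7 takes part in uptake; the uptake genes are described beside them.

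RNaseq had been performed on whole liver from 13 mice, all young adult female littermates carrying Albumin-Cre together with the Rosa26-loxP-stop-loxP-rtTA allele, so that the tetracycline transactivator was made in hepatocytes. Every mouse received a liquid diet with 28% of calories from ethanol for 4 weeks. The ASAH- Etoh-Dox group (n = 4) lacked TRE-ASAH1 and was given doxycycline (Dox), the ASAH+ Etoh-Dox group (n = 5) carried TRE-ASAH1 and was given Dox, and the ASAH+ Etoh group (n = 4) carried TRE-ASAH1 without Dox. The series description gives 4 mice per group, while 5 samples carry the labels of ASAH+ Etoh-Dox. For the ASAH+ mice, sample titles name the opposite Dox treatment from the descriptions and induction labels, and the latter were used. Asah1 followed them: it ranged from 9668 to 15935 CPM (counts relative to the scaled total of each library) in ASAH+ Etoh-Dox liver, from 40.0 to 55.0 CPM in ASAH- Etoh-Dox liver and from 44.2 to 48.3 CPM in ASAH+ Etoh liver. Sod1, the other gene called in both comparisons with ASAH+ Etoh-Dox mice, ranged from 753 to 973 CPM in that group and from 398 to 604 CPM in the other mice. Sod1 was higher in that group in 20 of 20 pairs of mice in each comparison. Library totals ranged from 17819486 to 35358711 counts, and the lowest count of any of the 7 genes in any mouse was 178, for Mvk. Hepatocyte markers were high in all mice, with Alb at a mean of 90337 CPM, and their sum ranged from 89995 to 141745 CPM.

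In hepatocytes, SREBP2 is held in the endoplasmic reticulum by SCAP and INSIG proteins when sterols are plentiful. When sterols fall, SCAP carries SREBP2 to the Golgi, where proteases release the part that enters the nucleus and binds sterol regulatory elements, usually beside NF-Y or Sp1 sites. Its targets include nearly every enzyme from acetyl-CoA to cholesterol, and Srebf2 itself. Hmgcs1 makes HMG-CoA, Mvk phosphorylates mevalonate, Idi1 isomerizes isopentenyl diphosphate, Sqle oxidizes squalene, Lss closes the ring to lanosterol and Cyp51 removes the methyl group at carbon C-14 of lanosterol.

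Promoter sequence was available for 6 of the 7 genes in the RefSeq table (build GRCm38.p6); Sqle had no entry. Both strands of the 250 bases before each start were searched for TCACNCCAC (a sterol regulatory element), CCAAT (NF-Y) and GGGCGG (Sp1). All 6 held CCAAT, which 33.8% of 32851 promoters hold, and all 6 held GGGCGG, which 32.7% hold. TCACNCCAC, held by 1.05% of promoters, was found in Hmgcs1 only; a missing match says only that these letters are not in this window. The Hmgcs1 stretch is shown because it holds all 3 motifs, in capitals on either strand, at chr13:119690199-119690350 on the plus strand, before the start of the gene.
Hmgcs1: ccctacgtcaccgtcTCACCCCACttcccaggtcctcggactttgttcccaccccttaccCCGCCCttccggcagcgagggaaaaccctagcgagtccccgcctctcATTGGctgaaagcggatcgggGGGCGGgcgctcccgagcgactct

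Mvk and Mmab, which encodes the adenosyltransferase that makes an active form of vitamin B12, lie head to head on chromosome 5. The 208 bases between their starts as GENCODE draws them, at chr5:114444061-114444268 on the plus strand, are shown with each CCAAT, on either strand, in capitals. The 250 bases before the Mvk start held 5 matches of CCAAT, as many as 0.213% of promoters hold or exceed.
Mvk and Mmab: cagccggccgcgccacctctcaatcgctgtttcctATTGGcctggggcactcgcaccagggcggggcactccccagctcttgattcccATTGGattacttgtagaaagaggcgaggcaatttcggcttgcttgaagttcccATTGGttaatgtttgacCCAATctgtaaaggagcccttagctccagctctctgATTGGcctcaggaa

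For the other 4 promoters the 30 bases around the CCAAT nearest the start are given, since this was the motif besides GGGCGG that all 6 shared. Idi1 lies at chr13:8885576-8885605 on the plus strand, Cyp51 at chr5:4104709-4104738 on the minus strand, Lss at chr10:76531531-76531560 on the plus strand and Srebf2 at chr15:82147122-82147151 on the plus strand. The Idi1 and Cyp51 windows lie inside the gene as GENCODE draws it, and those of Lss and Srebf2 lie before it.
Idi1: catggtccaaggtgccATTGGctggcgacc
Cyp51: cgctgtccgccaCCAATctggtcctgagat
Lss: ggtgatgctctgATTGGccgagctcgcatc
Srebf2: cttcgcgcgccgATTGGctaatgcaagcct

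**Figure D1:**
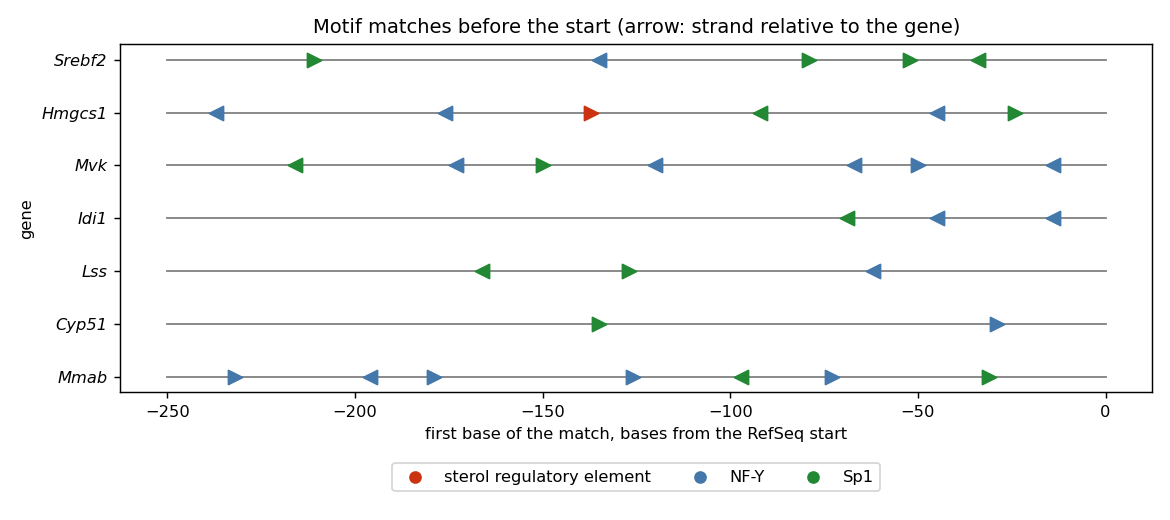
Matches of the sterol regulatory element, NF-Y and Sp1 motifs in the 250 bases before the RefSeq start of 6 of the genes and of Mmab; the x axis is distance from the start in bases and arrows give the strand. The sterol regulatory element was found in Hmgcs1 only, 137 bases before its start, and CCAAT and GGGCGG in every promoter shown.

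In GENCODE (GRCm38), Srebf2 (ENSMUSG00000022463) lies at chr15:82147181-82205379, Hmgcs1 (ENSMUSG00000093930) at chr13:119690379-119708260 and Mvk (ENSMUSG00000041939) at chr5:114444269-114460591. Idi1 (ENSMUSG00000058258) lies at chr13:8885501-8892451, Sqle (ENSMUSG00000022351) at chr15:59315077-59331192 and Lss (ENSMUSG00000033105) at chr10:76531588-76557138. Cyp51 (ENSMUSG00000001467), at chr5:4081145-4104746, is the only one of the 7 on the minus strand.

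Per kilobase of exon, the level was highest for Hmgcs1, at 64.2 ± 19.2 CPM per kb (SD, n = 13), then Idi1, at 50.3 ± 15 CPM per kb, and Cyp51, at 29.1 ± 7.24. Sqle followed at 9.65 ± 3.09, Srebf2 at 8.38 ± 0.973, Mvk at 4.70 ± 1.31 and Lss at 4.50 ± 0.979 CPM per kb. Hmgcs1 and Idi1, Sqle and Srebf2, and Mvk and Lss were neighbors whose means differed by less than the SD of the first named. Exon length was the union over all annotated transcripts, 10787 bases for Lss, so the level per kb is a low estimate where long exons are seldom used. Of the 31-base words of Idi1 transcripts, 18.8% also occur in other genes, most of them in Gm13502, which had a mean count of 377, so some Idi1 counts may have been divided between these genes; for each of the other 6 genes the share was at most 2.18%. Srebf2 overlaps Mir33 and Gm49502 on the same strand. On the opposite strand, Cyp51 overlaps Akap9, Idi1 overlaps Gm48574, and Hmgcs1 and Lss overlap annotated antisense transcripts.

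Mvk had the largest log2 fold change of the 7 genes between any pair of groups, 0.76 (SE 0.18) in ASAH- Etoh-Dox over ASAH+ Etoh liver. Its level was 19.4, 18.9, 14.2 and 10.9 CPM in the ASAH- Etoh-Dox mice (replicates 1 to 4). It was 13.9, 12.2, 13.3, 12.4 and 11.1 CPM in the ASAH+ Etoh-Dox mice (replicates 1 to 5), and 8.94, 7.24, 9.60 and 11.6 CPM in the ASAH+ Etoh mice. ASAH+ Etoh liver held the 3 lowest values of all mice. Its replicate 4 overlapped both other groups, lying above replicate 4 of ASAH- Etoh-Dox and replicate 5 of ASAH+ Etoh-Dox. The groups given Dox overlapped each other as well.

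Srebf2 was the least variable of the 7, with a coefficient of variation of 11.6% over 13 mice. It was 74.5, 70.2, 61.7 and 55.9 CPM in ASAH- Etoh-Dox liver, 60.4, 56.2, 65.9, 65.2 and 53.4 CPM in ASAH+ Etoh-Dox liver, and 58.0, 51.3, 54.8 and 55.0 CPM in ASAH+ Etoh liver. The groups overlapped, and the 2 highest values were those of ASAH- Etoh-Dox replicates 1 and 2, as for Mvk.

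Idi1 was 262, 227, 148 and 138 CPM in ASAH- Etoh-Dox liver and 218, 201, 244, 120 and 114 CPM in ASAH+ Etoh-Dox liver. It was 202, 103, 146 and 171 CPM in ASAH+ Etoh liver. High and low mice were found in every group, and the coefficient of variation over 13 mice was 29.9%. Cyp51 was 179, 165, 115 and 99.7 CPM, then 165, 135, 165, 97.9 and 102 CPM, then 139, 81.1, 103 and 124 CPM in the same order of groups. The same mice were high and low as for Idi1.

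Hmgcs1 ranged from 233 to 384 CPM in ASAH- Etoh-Dox liver, from 239 to 523 CPM in ASAH+ Etoh-Dox liver and from 167 to 272 CPM in ASAH+ Etoh liver. The highest value was that of ASAH+ Etoh-Dox replicate 3. Sqle ranged from 43.8 to 76.0, 33.4 to 83.0 and 36.3 to 61.9 CPM in the same groups, and Lss from 31.9 to 66.4, 41.6 to 64.5 and 32.4 to 45.0 CPM. The ranges of all 3 groups overlapped for each of these genes.

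**Figure D2:**
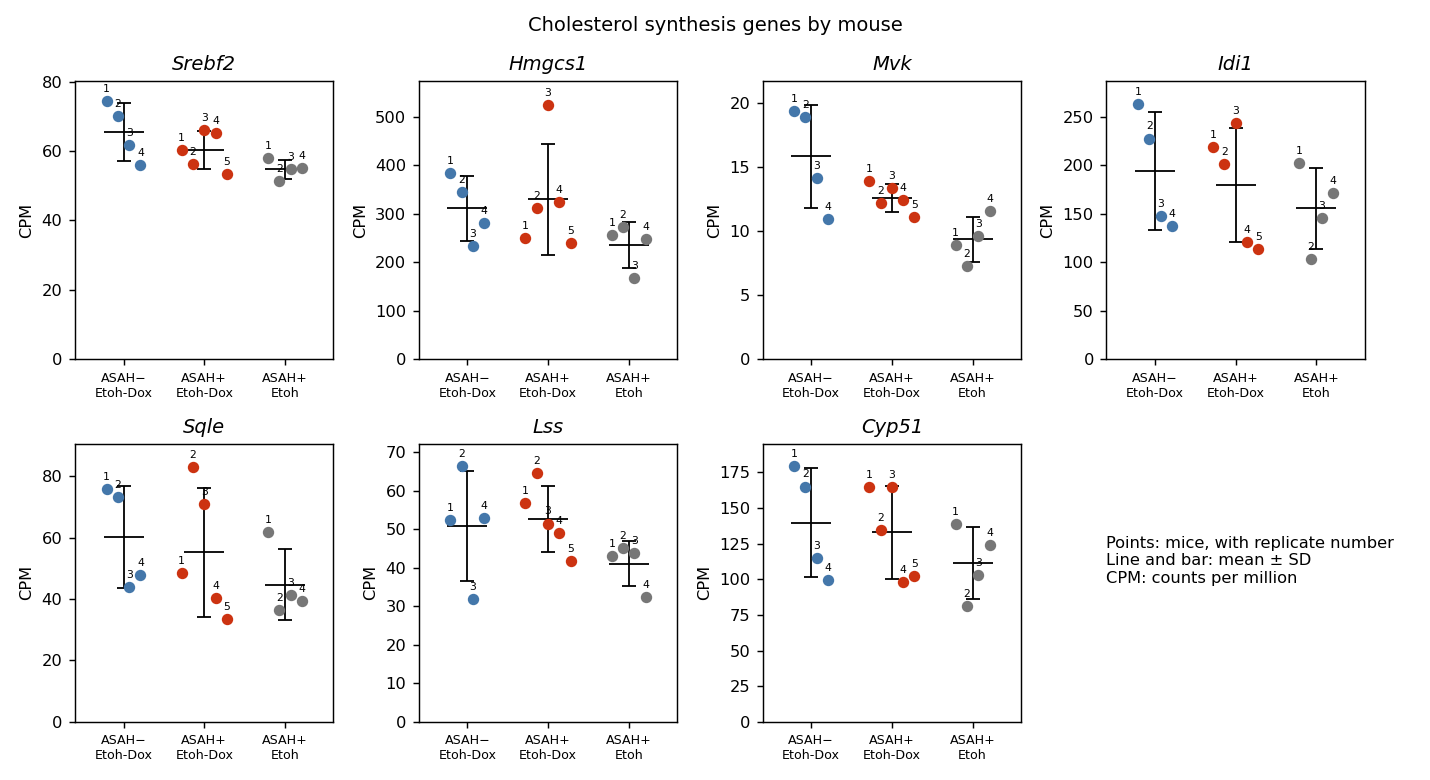
Level of each of the 7 genes in CPM (y axis, from 0) in each mouse, by group (x axis); points carry the replicate number, and lines and bars give the mean and SD. ASAH- Etoh-Dox replicates 1 and 2 and ASAH+ Etoh-Dox replicate 3 were above the mean over all mice (log2 CPM) for all 7 genes, and ASAH+ Etoh-Dox replicate 5 and ASAH+ Etoh replicates 2 and 3 for none.

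The comparison of ASAH+ Etoh-Dox with ASAH- Etoh-Dox mice asks what the transgene changes under Dox. None of the 7 genes was called at an adjusted p under 0.1 (edgeR quasi-likelihood test, Benjamini-Hochberg over 14317 genes), and 2 genes in all were (0.0140% of those tested). The largest difference was that of Mvk, with a log2 fold change of -0.33 (SE 0.16, adjusted p 1.00 by edgeR), and ASAH+ Etoh-Dox mice were higher in 5 of 20 pairs of mice. Hmgcs1 had a log2 fold change of 0.09 (SE 0.23) and Srebf2 of -0.12 (SE 0.09). With single mice left out, Hmgcs1 ran from -0.14 to 0.21, Srebf2 from -0.19 to -0.046 and Mvk from -0.47 to -0.21; without ASAH- Etoh-Dox replicate 1, Mvk was at -0.21 and Hmgcs1 at 0.21. In this comparison 2 of the 7 log2 fold changes were above 0, beside 49.3% of all genes, and their median was -0.11, beside a median of -0.002 over all genes. The median was 0.07 without ASAH- Etoh-Dox replicate 1, 0.02 without ASAH+ Etoh-Dox replicate 5 and 0.004 without ASAH+ Etoh-Dox replicate 4, so its sign rested on single mice. No gene of the 7 had an unadjusted p under 0.05, which 2.86% of all genes had, and none had groups that did not overlap, which 0.887% had. DESeq2 called none of the 7 and 0.0759% of the 15808 genes to which it gave an adjusted p.

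The comparison of ASAH+ Etoh-Dox with ASAH+ Etoh mice asks what Dox changes in mice that carry the transgene. Asah1 differed with Dox here (means of 12755 and 46.5 CPM), so the parts of Dox and of the induced ceramidase cannot be told apart. All 7 genes had log2 fold changes above 0, beside 53.0% of all genes, with a median of 0.31 beside 0.013 over all genes. None was called by edgeR, as against 0.0140% of all genes. The values were 0.49 (SE 0.23) for Hmgcs1, 0.43 (SE 0.17) for Mvk, 0.36 (SE 0.18) for Lss, 0.31 (SE 0.28) for Sqle, 0.25 (SE 0.22) for Cyp51, 0.21 (SE 0.28) for Idi1 and 0.14 (SE 0.09) for Srebf2. Mvk was the only one with an unadjusted p under 0.05 (edgeR p 0.0221, adjusted p 0.603), as were 7.29% of all genes; it was higher in 19 of 20 pairs of mice. The median of the 7 was 0.19 and the value for Hmgcs1 0.25 without ASAH+ Etoh-Dox replicate 3, the mouse with the highest Hmgcs1. Sqle was at 0.11 without ASAH+ Etoh-Dox replicate 2, and Idi1 was at 0.053 and Cyp51 at 0.12 without ASAH+ Etoh replicate 2. None of the 7 had groups that did not overlap, as 2.58% of all genes had. DESeq2 gave an adjusted p to 3 of the 7 and called none of them, while it called 4.94% of the 1982 genes to which it gave one.

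In the comparison of ASAH- Etoh-Dox with ASAH+ Etoh mice, which differ in both the transgene and Dox so that their parts cannot be told apart, all 7 genes again had log2 fold changes above 0, beside 53.2% of all genes. The median was 0.32 beside 0.016 over all genes. Mvk had the largest, 0.76 (SE 0.18), a fold of 1.70, and was higher in 15 of 16 pairs of mice; edgeR gave it an adjusted p of 0.389. No gene of the 7 was called by edgeR, beside 0.0140% of all genes, but DESeq2 on all 13 mice called Mvk (adjusted p 0.0246, against 0.0246 to 0.662 over the alternatives) and 1.73% of the 8625 genes to which it gave an adjusted p. Unadjusted p was under 0.05 for Mvk (edgeR p 0.000708) and Srebf2 (edgeR p 0.0205, log2 fold change 0.26, SE 0.10), as for 9.19% of all genes. The other log2 fold changes lay between 0.31 for Lss and 0.43 for Sqle. Without ASAH- Etoh-Dox replicate 1, Idi1 was at 0.12, Cyp51 at 0.17 and Sqle at 0.28. Lss was at 0.15 without ASAH- Etoh-Dox replicate 2, and Hmgcs1 at 0.25 without ASAH+ Etoh replicate 3. None of the 7 had groups that did not overlap, as 5.50% of all genes had. This comparison and the one before it share the ASAH+ Etoh mice, so that their values are not independent.

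**Figure D3:**
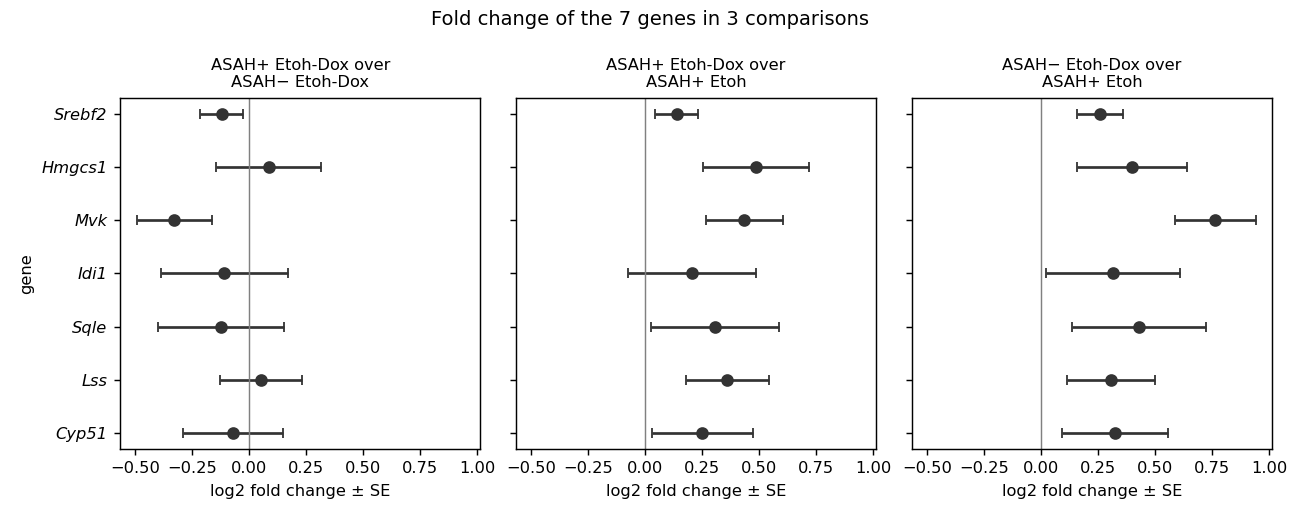
Log2 fold change (x axis, point and SE) of the 7 genes (y axis) in the 3 comparisons, from the edgeR fit to 13 mice. All 7 points lie above 0 in both comparisons over ASAH+ Etoh mice, and none was called at an adjusted p under 0.1.

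Markers of the cell types of liver were compared in the same mice. The 5 red cell markers, most abundant Hbb-bs, summed to a mean of 166 CPM in ASAH+ Etoh, 560 CPM in ASAH+ Etoh-Dox and 728 CPM in ASAH- Etoh-Dox liver, with ranges of 135 to 192, 241 to 871 and 215 to 1714 CPM. The range of ASAH+ Etoh liver did not overlap the others, and a single mouse held the 1714 CPM of ASAH- Etoh-Dox liver. The 6 Kupffer cell and macrophage markers, most abundant Cd5l, summed to 279, 350 and 430 CPM in the same groups. The 5 lymphocyte markers summed to 1.55, 3.09 and 2.93 CPM. No marker of these 3 lists was at 0 in every mouse, and edgeR called none. DESeq2 called 3 red cell markers as higher in ASAH+ Etoh-Dox and 4 as higher in ASAH- Etoh-Dox than in ASAH+ Etoh liver, and none of the Kupffer cell or lymphocyte lists. At an unadjusted p under 0.05 (edgeR), all 5 red cell markers were higher in each of these comparisons, as were 2 lymphocyte markers. So were 5 Kupffer cell markers in ASAH- Etoh-Dox over ASAH+ Etoh liver. The 6 sinusoidal endothelial markers summed to 177, 144 and 176 CPM, the 6 stellate cell markers to 254, 246 and 290 CPM, and the 5 cholangiocyte markers to 44.4, 39.4 and 49.6 CPM. Neither edgeR nor DESeq2 called any of these. At an unadjusted p under 0.05 (edgeR), 3 endothelial and 1 stellate marker were lower in ASAH+ Etoh-Dox than in ASAH- Etoh-Dox liver, 4 endothelial markers were lower in ASAH+ Etoh-Dox than in ASAH+ Etoh liver, and 1 stellate marker was higher in ASAH- Etoh-Dox than in ASAH+ Etoh liver. The 7 hepatocyte markers summed to 120994, 112899 and 130326 CPM. edgeR called none of them, while DESeq2 called 1 as lower in ASAH+ Etoh-Dox than in ASAH- Etoh-Dox liver, 2 as lower in ASAH+ Etoh-Dox than in ASAH+ Etoh liver and 1 as higher in ASAH- Etoh-Dox than in ASAH+ Etoh liver. At an unadjusted p under 0.05 (edgeR) these counts were 2, 3 and 1. Of all genes, 2.86%, 7.29% and 9.19% had such a p in these comparisons. Exocrine pancreas markers summed to at most 11.6 CPM and adipocyte markers to at most 13.5 CPM in any mouse. The part of these cells in the levels of the 7 genes was not tested, and in whole liver fewer cells of a type and less RNA per cell cannot be told apart.

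Among the other genes of cholesterol synthesis, 16 were listed and tested, and neither edgeR nor DESeq2 called any in a comparison. At an unadjusted p under 0.05 (edgeR) there were 0, 2 and 1, in the order of comparisons above, all of them higher. The shares of all genes were 2.86%, 7.29% and 9.19%. Of the 16 log2 fold changes, 9, 13 and 11 were above 0 in the same order, and their medians were 0.04, 0.14 and 0.17. In ASAH+ Etoh-Dox over ASAH- Etoh-Dox liver the largest differences were those of Pmvk (phosphomevalonate kinase), with a log2 fold change of 0.29 (SE 0.19), and Mvd (mevalonate diphosphate decarboxylase), with -0.27 (SE 0.31). In the mevalonate steps, Fdps (farnesyl diphosphate synthase) had a log2 fold change of 0.60 (SE 0.30) and Pmvk of 0.49 (SE 0.19) in ASAH+ Etoh-Dox over ASAH+ Etoh liver. Mvd had 0.69 (SE 0.33) in ASAH- Etoh-Dox over ASAH+ Etoh liver. In the sterol steps, Nsdhl had 0.52 (SE 0.25) in ASAH+ Etoh-Dox over ASAH+ Etoh liver, and Msmo1 0.36 (SE 0.28) and Fdft1 (squalene synthase) 0.35 (SE 0.16) in ASAH- Etoh-Dox over ASAH+ Etoh liver.

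Of the SREBP processing genes, 12 were tested; edgeR and DESeq2 called none, and Srebf2 alone had an unadjusted p under 0.05 (edgeR). Srebf1 was the highest in ASAH+ Etoh-Dox liver, at 0.25 (SE 0.35) over ASAH- Etoh-Dox and 0.22 (SE 0.35) over ASAH+ Etoh liver. Insig1, an SREBP target that retains SCAP, was the lowest in ASAH- Etoh-Dox over ASAH+ Etoh liver, at -0.23 (SE 0.17). Of the genes of LDL uptake and cholesterol traffic, 10 of 11 were tested; edgeR and DESeq2 called none, and 1 had an unadjusted p under 0.05 (edgeR). This was Mylip, which encodes a ubiquitin ligase induced by LXR, at -0.49 (SE 0.19) in ASAH+ Etoh-Dox over ASAH+ Etoh liver. Over ASAH- Etoh-Dox liver, Mylip was at -0.34 (SE 0.19) and Lipa, a lysosomal lipase, at 0.20 (SE 0.11). In ASAH- Etoh-Dox over ASAH+ Etoh liver, Npc1, a lysosomal cholesterol transporter, was lowest, at -0.26 (SE 0.23), and Npc2 highest, at 0.21 (SE 0.12). Of 6 further SREBP2 targets Mmab had the largest difference in both comparisons over ASAH+ Etoh mice, at 0.41 (SE 0.14) and 0.40 (SE 0.15). It was also the only one of the 6 with an unadjusted p under 0.05 (edgeR), in both, and DESeq2 called none. Its adjusted p was 0.548 and 0.441 (edgeR). Mmab alone of these 6 had groups that did not overlap, in ASAH+ Etoh-Dox over ASAH+ Etoh liver, as 2.58% of all genes had.

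Neither edgeR nor DESeq2 called a gene of sterol efflux, cholesterol breakdown or lipogenesis. Of 9 LXR and efflux genes, Abcg1 was highest, at 0.36 (SE 0.22) in ASAH+ Etoh-Dox and 0.46 (SE 0.23) in ASAH- Etoh-Dox over ASAH+ Etoh liver. At an unadjusted p under 0.05 (edgeR) the LXR and efflux list held 0, 1 and 1 genes in the order of comparisons above. Abcg1 was not among them, and the 1 in ASAH+ Etoh-Dox over ASAH+ Etoh liver was Mylip, which is also in the LDL uptake list. The list of esters and breakdown held 0, 1 and 0, and the SREBP1 lipogenic list 2, 0 and 1. Of all genes, 2.86%, 7.29% and 9.19% had such a p in the same order. Of 8 tested genes of cholesterol esters and breakdown, Cyp7a1, which encodes the rate-limiting enzyme of bile acid synthesis, was lowest. It was at -1.11 (SE 1.05) in ASAH+ Etoh-Dox and -0.75 (SE 1.11) in ASAH- Etoh-Dox over ASAH+ Etoh liver. Soat2 was at 0.48 (SE 0.17) in ASAH+ Etoh-Dox over ASAH+ Etoh liver. The SREBP1 lipogenic list had a median log2 fold change of 0.26 in ASAH+ Etoh-Dox over ASAH- Etoh-Dox liver, with 10 of 12 genes above 0. Its median was 0.12 in ASAH+ Etoh-Dox and -0.25 in ASAH- Etoh-Dox over ASAH+ Etoh liver, with 7 and 3 of 12 above 0. Fasn was at -0.58 (SE 0.47) and -0.65 (SE 0.50), Elovl6 at -0.48 (SE 0.48) and -0.73 (SE 0.51), and Pnpla3 at 0.98 (SE 0.58) and 0.11 (SE 0.63) in the same comparisons. The level of Pnpla3 was low, with means of 0.91 CPM in ASAH+ Etoh-Dox, 0.50 CPM in ASAH- Etoh-Dox and 0.46 CPM in ASAH+ Etoh liver. Me1, which encodes malic enzyme, was at -0.45 (SE 0.17) in ASAH- Etoh-Dox over ASAH+ Etoh liver, where its groups did not overlap, as for 5.50% of all genes. It was at 0.47 (SE 0.17) in ASAH+ Etoh-Dox over ASAH- Etoh-Dox liver.

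Within the 7 genes, all 21 pairs were positively correlated across the 13 mice (log2 CPM), with Pearson r from 0.35 to 0.97 and a median of 0.63. In two-sided permutation tests with 100000 resamples and Benjamini-Hochberg adjustment over the 21 pairs, 12 pairs had an adjusted p under 0.05. Idi1 and Cyp51 were the closest pair, with r = 0.97 and Spearman rho = 0.97. Both had the smallest permutation p that the resamples allow, 1.0e-05 (adjusted p 0.00021), and r was 0.96 without the 2 mice farthest from the median of Idi1. Srebf2 and Mvk had r = 0.87 (permutation p 0.00013, adjusted p 0.00136) and rho = 0.85 (permutation p 0.00051), with r = 0.71 without the 2 farthest mice. Idi1 and Sqle had r = 0.86 (permutation p 0.00047, adjusted p 0.00329) and rho = 0.83 (permutation p 0.00081), with r = 0.81 without those mice. Lss was the least alike, with r from 0.35 with Mvk to 0.65 with Sqle. The genes of a library share its depth and scaling.

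With group means removed, all 21 values of r stayed above 0 and their median was 0.58, but 6 pairs had an adjusted p under 0.05 in permutations within groups (69120 orders, all enumerated). Idi1 and Cyp51 had r = 0.98 (exact permutation p 5.8e-05, adjusted p 0.00122). Idi1 and Sqle had r = 0.84 (exact permutation p 0.00567, adjusted p 0.0337), and Srebf2 and Mvk had r = 0.77 (exact permutation p 0.00674, adjusted p 0.0337). These 3 pairs were thus close inside the groups as well. The 12 pairs fell to 4 without ASAH- Etoh-Dox replicate 1, to 5 without ASAH- Etoh-Dox replicate 2 and without ASAH+ Etoh replicate 2, and to 7 without ASAH+ Etoh-Dox replicates 3 or 5 or ASAH+ Etoh replicate 4, each left out in turn. The median r of the 21 pairs ran from 0.57 to 0.67 with 1 mouse left out.

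**Figure D4:**
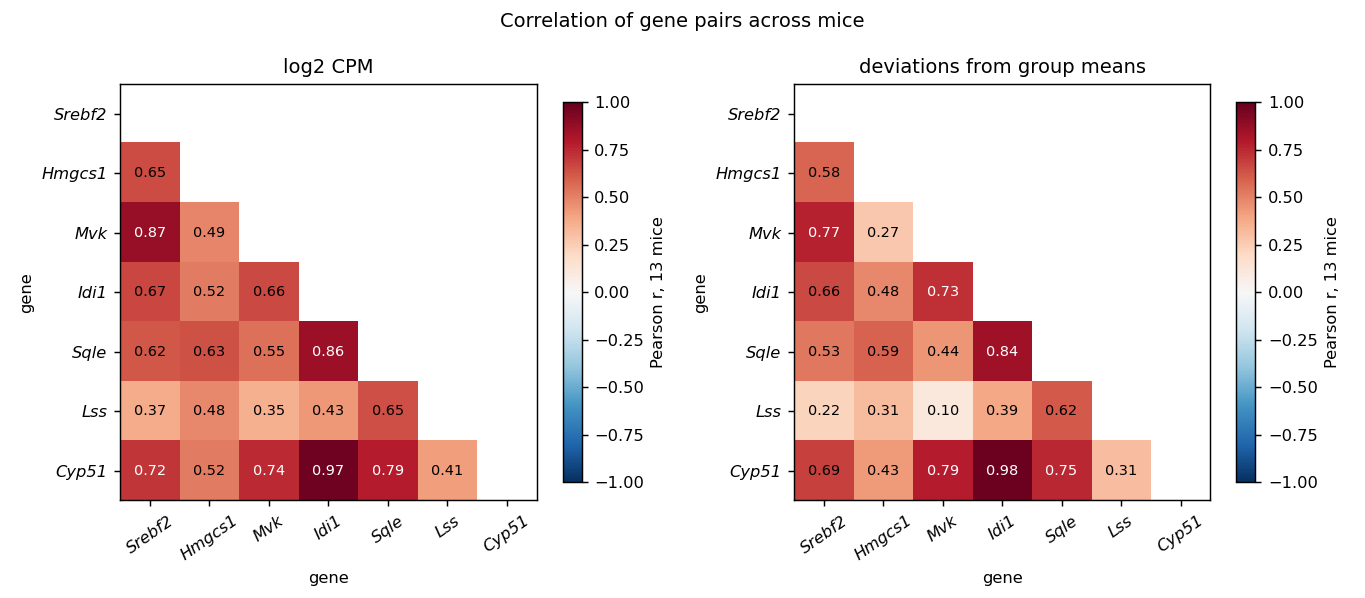
Pearson r for each pair of the 7 genes over 13 mice, from log2 CPM (left) and from deviations from group means (right); color gives r from -1 to 1. Idi1 and Cyp51 have the highest r in both panels, 0.97 and 0.98, and Lss has most of the lowest.

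The genes closest to the 7 were sought by correlating each gene's deviations from its group means with the mean of the 7 genes' deviations, each gene standardized, without a test. Of 14317 genes, the 10 with the highest r apart from the 7 themselves were Sema3c (0.92), Zbed4-ps2 (0.90), Tspan8 (0.89), Acat2 (0.89), Gm43071 (0.89), Pmvk (0.87), Nit1 (0.87), Fdps (0.85), Gm19265 (0.83) and Mmab (0.83). Sema3c, Zbed4-ps2, Tspan8, Gm43071 and Gm19265 had mean levels under 1 CPM. Acat2 (acetyl-CoA acetyltransferase), Pmvk and Fdps act in the mevalonate steps. Of the 16 other synthesis genes, 10 had r above 0.5, as did 5.32% of all genes. The lowest of the 16 was at -0.37, and 2 were below 0.

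The 6 further SREBP2 targets were spread: Mmab had r = 0.83, Rdh11 0.76, Tmem97 0.29, Stard4 0.17, Insig1 0.10 and Aacs -0.09, with a median of 0.23, against a median of 0.69 for the 16 other synthesis genes. All 6 are given, although some are named after their values were seen. None of the 10 tested genes of LDL uptake and cholesterol traffic had r above 0.5. The LXR and efflux list had a median r of -0.30, with 8 of 9 genes below 0. The SREBP1 lipogenic list had a median of 0.35, with 2 of 12 genes above 0.5, the highest at 0.71, and Srebf1 itself at -0.42. Whether these values of r differ from one another was not tested.

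**Figure D5:**
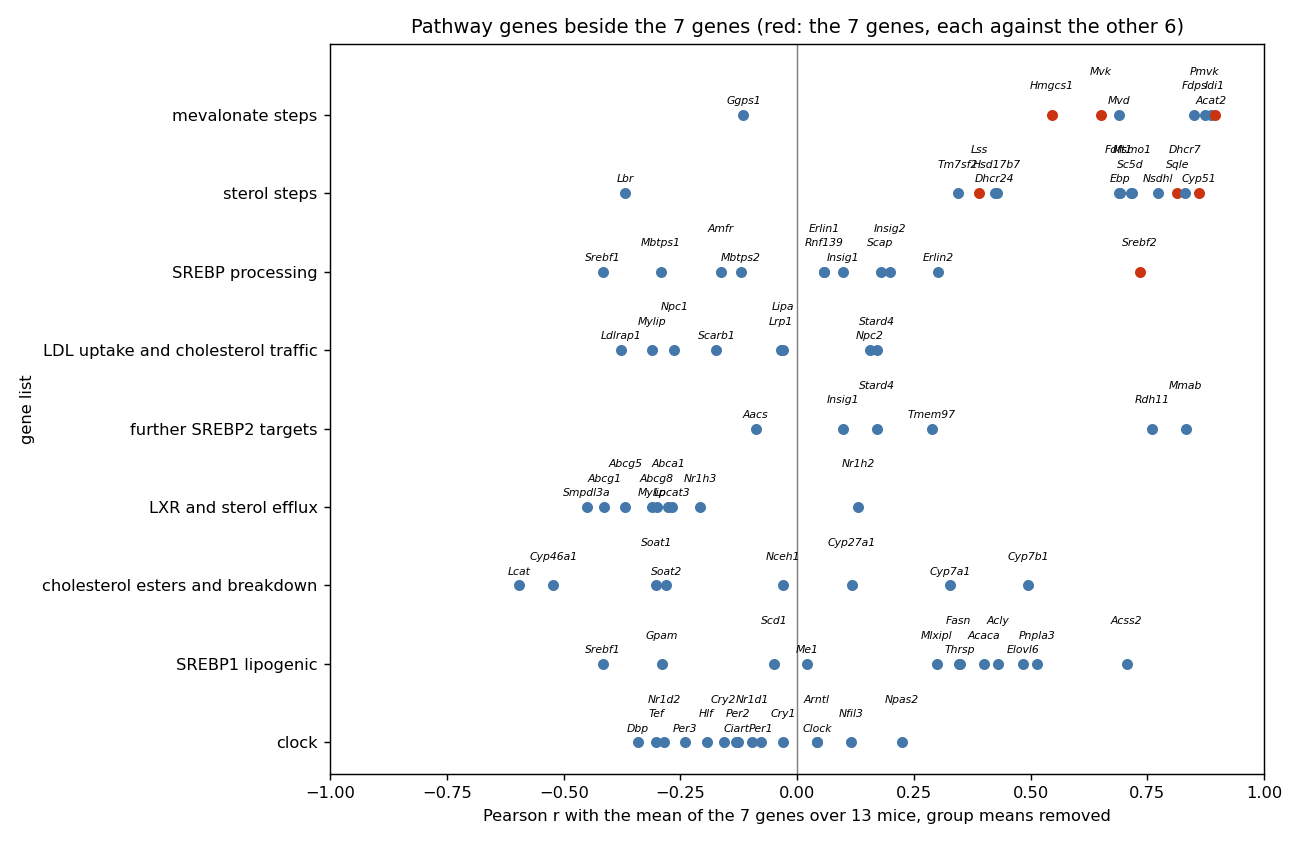
Pearson r (x axis) of each listed gene with the mean of the 7 genes over 13 mice, group means removed, by gene list (y axis), for the genes reported here; the 7 genes, in red, are each set against the other 6. Acat2, Pmvk, Fdps and Mmab lie above 0.8, while Insig1 lies at 0.10 and Stard4 at 0.17.

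The mice also differed in the levels of clock genes. The log2 ratio of Dbp, a clock output gene, to Arntl, a core clock gene in opposite phase, ran from -0.96 to 6.49 in ASAH- Etoh-Dox, from -1.64 to 6.78 in ASAH+ Etoh-Dox and from 1.60 to 6.06 in ASAH+ Etoh liver. The 3 mice with the highest mean of the 7 genes, ASAH- Etoh-Dox replicates 1 and 2 and ASAH+ Etoh-Dox replicate 3, had ratios of -0.96, 6.49 and -1.64, and thus stood at both ends of the range. The slope of each gene on the ratio, beside the group means in the edgeR fit, was tested after the data were seen. None of the 7 genes had a slope with an adjusted p under 0.1 (edgeR), as 9.58% of all genes had. The slope was 0.05 (SE 0.02) for Lss and -0.05 (SE 0.03) for Hmgcs1, in log2 units per unit of the log2 ratio.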

How the data were processed

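RNA had been isolated from liver and sequenced from stranded mRNA libraries. The authors mapped reads with Salmon to GENCODE M19 transcripts (GRCm38.p6) and summed them to genes with tximport. The deposited estimated counts were read as whole numbers, with any fraction cut off. Whether they held fractions before this was not checked. Whether strand was used and the Salmon version are not given in the sources used here. Gene symbols were matched by Ensembl ID without its version for 53355 of 53392 genes, and gene lengths and positions were taken from GENCODE on the same build.

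All 13 mice were fitted with 3 group means in edgeR 4.0.16 (quasi-likelihood, TMM scaling, filterByExpr) on R 4.3.3, with Benjamini-Hochberg adjustment over all genes tested and a threshold of 0.1. Alternatives used DESeq2 1.42.0 and limma 3.58.1. CPM used TMM library sizes, and log2 CPM a prior count of 2. The fit was tested on simulated data. Replicates of a group were different libraries: in 22 pairs the chi-square per degree of freedom was at least 18.4.

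The genes and gene lists were chosen with earlier results of these data known. Named genes were the 7, Asah1 and Sod1, every gene of each pathway list called by edgeR and otherwise the 2 to 4 with the largest absolute log2 fold change, the 10 genes most alike, and Dbp and Arntl; others are said to have been chosen after their values were seen. Some listed genes are counted in the counts and medians of their lists but are not reported here.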

Additional observations from a re-analysis of the deposited data

Results flagged for a closer look

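Lss in ASAH+ Etoh replicate 4, at 32.4 CPM, lay below the other mice of its group, which ranged from 43.1 to 45.0 CPM; its gap to the nearest of them was 0.845 of the range of the group. It was 1 of 21 sets of gene and group examined in this way, and chance marks about 1 in 20. The total of this library, 17819486 counts, was the lowest of the 13.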

How the results depend on the processing

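None of the 7 genes was called by edgeR or limma-voom under any alternative, or by edgeR with any mouse left out; DESeq2 called 1, Mvk, in ASAH- Etoh-Dox over ASAH+ Etoh mice, on all mice and on the 2 groups alone. Of the log2 fold changes of single genes under other settings, 184 kept their direction without passing the threshold, 3 reversed and 2 passed the threshold; with a mouse left out, 260 kept their direction without passing it and 13 reversed. DESeq2 on all mice gave 4 of these no adjusted p. The comparisons below are ASAH+ Etoh-Dox over ASAH- Etoh-Dox (the first), ASAH+ Etoh-Dox over ASAH+ Etoh (the second) and ASAH- Etoh-Dox over ASAH+ Etoh (the third). DESeq2 called 12, 98 and 149 genes in these on all mice, and 11, 114 and 168 on the 2 groups alone. Without a count filter the second had 4 called genes. edgeR on the 2 groups alone called 1 gene in the first and 0 in the third. With Asah1 left out, 1 gene was called in the first and 1 in the second. With log2 Dbp over Arntl added to the fit, 1 was called in the third. Blocking by replicate number called 1 gene in the first and 0 in the third, and reversed Idi1 (0.026), Sqle (0.022) and Cyp51 (0.014) in the first, where the median of the 7 was 0.022. With 1 mouse left out in turn, edgeR called 1 to 2 genes in the first, 2 to 8 in the second (8 without ASAH+ Etoh replicate 2) and 0 to 2 in the third. The median of the 7 then ran from -0.20 to 0.07 in the first, 0.19 to 0.43 in the second and 0.23 to 0.48 in the third. In the first, the log2 fold change ran from -0.47 to -0.21 for Mvk, -0.19 to -0.046 for Srebf2, -0.14 to 0.21 for Hmgcs1, -0.24 to 0.079 for Idi1, -0.32 to 0.019 for Sqle, -0.12 to 0.21 for Lss and -0.20 to 0.078 for Cyp51. In the second it ran from 0.25 to 0.58 for Hmgcs1, 0.33 to 0.54 for Mvk, 0.053 to 0.36 for Idi1, 0.11 to 0.50 for Sqle, 0.25 to 0.43 for Lss, 0.12 to 0.37 for Cyp51 and 0.094 to 0.17 for Srebf2. In the third it ran from 0.25 to 0.52 for Hmgcs1, 0.64 to 0.91 for Mvk, 0.12 to 0.47 for Idi1, 0.28 to 0.63 for Sqle, 0.15 to 0.48 for Lss, 0.17 to 0.45 for Cyp51 and 0.18 to 0.33 for Srebf2. Correlated pairs past the threshold numbered 6 on deviations from group means and 4 to 13 with 1 mouse left out. The cause of these changes was not tested. Each group had 4 or 5 mice, and a p that misses the threshold does not show that levels did not differ.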
